A study of Mus musculus with 8 samples.

Results

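Voltage-gated potassium (Kv) channel genes were followed across the cell classes of the adult mouse retina, across retinal ganglion cell (RGC) types, and between control mice and mice lacking Piezo2 in Olig2-lineage cells. The set was defined by gene symbol alone and held 40 of the 33696 genes counted, namely every listed gene of the Kcna, Kcnb, Kcnc, Kcnd, Kcnf, Kcng, Kcnh, Kcnq, Kcns and Kcnv families. Single-nucleus RNA sequencing (snRNA-seq) was available for 8 libraries, each pooling 6 retinae taken at postnatal day 120 (P120), and per the study's methods the mice were female. Both groups carried Piezo2f/f, in which both copies of the Piezo2 channel gene are floxed and can be cut by Cre recombinase. The 4 control libraries (numbered 1 to 4) had no Cre. The 4 Olig2-cre;Piezo2f/f (cKO) libraries (10 to 13) carried Cre under the control of Olig2, a gene of the oligodendrocyte lineage, and had a single intact copy of Olig2. Per the study's methods, nuclei positive for both RBPMS and NeuN had been sorted, which enriches RGCs, the neurons whose axons form the optic nerve. Levels in other classes describe only those nuclei that came through this sort, which may not represent their class. The study found no differentially expressed genes between cKO and control retinae. It also reported no Olig2 expression in the retina and used this tissue to look for off-target effects of the Cre line. Whether the retinal nuclei lost Piezo2 is thus not known here. UMIs of Piezo2 do not check the deletion, since they are counted over the whole gene and not over the floxed part alone. The RGC gate described below held 14.6 ± 2.91 counts per 1000000 UMIs of the gate (CPM) in the control and 12.5 ± 2.74 CPM in the cKO libraries (mean ± SD, n = 4 each), with ranges that overlapped.

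A Kv channel is built from pore-forming subunits that open when the membrane depolarises and let potassium out, which ends action potentials and sets how long and how often a neuron fires. The Kcna (Kv1), Kcnb (Kv2), Kcnc (Kv3) and Kcnd (Kv4) families form such pores alone, with Kv1 channels at axon initial segments and beside nodes, Kv2 channels as delayed rectifiers of the cell body, Kv3 channels in fast-spiking cells and Kv4 channels as transient A-type currents of dendrites. Kcnf, Kcng, Kcns and Kcnv subunits are silent on their own and modify Kv2 channels, Kcnh genes encode the EAG, ERG and ELK channels, and several Kcnq genes encode the slow M-type channels that hold back repetitive firing. In photoreceptors, which signal light with graded voltages, Kv2 channels with the silent subunit Kcnv2 carry a potassium current of the inner segment, and human KCNV2 is the gene of a cone dystrophy with supernormal rod responses.

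The patterns described first rest on 2 genes that were high in photoreceptor or bipolar nuclei. For these genes the 250 bases before the annotated transcription start (GRCm39, from the gene's canonical transcript in GENCODE) are shown 5′ to 3′ on the gene's own strand, because photoreceptor genes are often controlled close to their start. Capitals mark TCAGCA, the reverse complement of TGCTGA, the core letters bound by the rod factor Nrl.
Kcnv2, chr19:27299738-27299987, plus strand: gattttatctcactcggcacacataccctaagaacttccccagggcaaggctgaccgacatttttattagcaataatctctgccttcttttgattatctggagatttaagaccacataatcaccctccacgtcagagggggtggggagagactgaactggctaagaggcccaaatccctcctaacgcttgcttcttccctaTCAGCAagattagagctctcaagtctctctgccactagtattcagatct
Kcnh6, chr11:105898700-105898949, plus strand: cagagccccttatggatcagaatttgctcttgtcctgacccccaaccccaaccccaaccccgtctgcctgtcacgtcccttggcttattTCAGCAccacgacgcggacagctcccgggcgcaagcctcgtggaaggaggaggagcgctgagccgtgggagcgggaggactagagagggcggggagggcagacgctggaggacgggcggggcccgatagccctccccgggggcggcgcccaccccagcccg
The letters TGCTGA or TCAGCA occurred in 14.8% of 21770 protein-coding promoters of the same length and in 5 of 40 Kv promoters (Kcna1, Kcna10, Kcnh6, Kcns2 and Kcnv2). TAATCC or its reverse complement GGATTA, core letters of the photoreceptor factor Crx, occurred in 1524 of these 21770 promoters and in 1 of 40 Kv promoters. A match is a description of these letters and not a measured binding site, and both motifs were searched on both strands.

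After quality control 34815 nuclei remained. Classes were gated by unique molecular identifiers (UMIs, 1 per captured RNA molecule) of marker genes that are not Kv genes. Of the nuclei kept, 19904 passed the RGC gate, 2481 the amacrine gate, 1589 the bipolar gate, 1274 the rod gate, 473 the cone gate, 1214 the Müller glia gate and 106 the horizontal cell gate, each without passing another, while 18.4% passed none. A further 3.97% passed several class gates and were put in no class. Library depth was 35697629 to 60088630 UMIs, and the mean of the 4 control libraries' median UMIs per nucleus ran from 1251 in the rod gate to 8099.8 in the RGC gate. Check markers that no gate had used were highest in their own class gate in both groups, except Sncg in the RGC gate of the control libraries. The RGC type gates were named by their markers, and 2 of 4 check markers of the Spp1 gate (Tafa4 and Kit) and 1 of 2 of the Tbr1 gate (Irx4) were not higher there. Unlike the class gates, these type gates could overlap. Of nuclei gated by Opn4 and Eomes (the ipRGC gate) 40 of 259 (15.4%) also passed the Spp1 gate, as did 52 of 614 Tbr1-gated nuclei (8.47%). Müller glia-gated nuclei held Glul (1511 CPM) and Aqp4 (439 CPM) but also Flt1 (1978 CPM), Kdr (490.0 CPM) and Pdgfrb (139 CPM), genes of blood vessel cells, with Pecam1 at 2.35 CPM. RNA that floats free in the suspension adds UMIs to every nucleus, so the level in empty droplets of the control libraries is given for a number of genes. Of 28 pairs of libraries, nuclei of different libraries shared 139 barcodes where 77.6 were expected from barcode numbers alone.

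Of the 40 Kv genes, 27 had over 1000 UMIs in the class gates together and 4 had under 50. Among the 34 members with at least 50 UMIs in the 6 class gates of the control libraries alone, mean CPM in those libraries was highest in the RGC gate for 17, in the amacrine gate for 7, in the bipolar gate for 4, in the cone gate for 3, in the rod gate for 2 and in the Müller glia gate for 1. Each class was compared with the RGC gate within the control libraries by edgeR's quasi-likelihood test, with the library as a block. A call required a log2 fold change beyond 0.5 in either direction with a Benjamini-Hochberg adjusted p below 0.05, and genes of low counts were not tested. The amacrine contrast called 24 of 34 tested members (8 higher and 16 lower) and 27.3% of all genes tested (13.9% higher and 13.4% lower). Of bipolar-gated nuclei the test called 28 of 32 tested members (7 higher and 21 lower) and 43.1% of all genes tested (18.9% higher and 24.1% lower). The rod contrast called 22 of 31 tested members (2 higher and 20 lower) and 37.6% of all genes tested (13.7% higher and 23.9% lower). In the cone contrast the calls were 24 of 31 tested members (3 higher and 21 lower) and 35.6% of all genes tested (12.7% higher and 22.9% lower). In the Müller glia gate it called 28 of 31 tested members (2 higher and 26 lower) and 46.5% of all genes tested (20.1% higher and 26.4% lower). Every one of these called genes had the same sign in the cKO libraries, where 118 of 126 calls passed again. The median log2 fold change of tested members was -0.58 in the amacrine contrast, -1.60 in the bipolar, -2.61 in the rod, -3.58 in the cone and -3.15 in the Müller glia contrast. Over all genes tested the medians were 0.0049, -0.083, -0.31, -0.36 and -0.14 in the same order. Without the TMM scaling factors the all-gene median rose by 0.54 in the rod, 0.50 in the cone and 0.24 in the Müller glia contrast, and no named member changed sign.

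**Figure D1:**
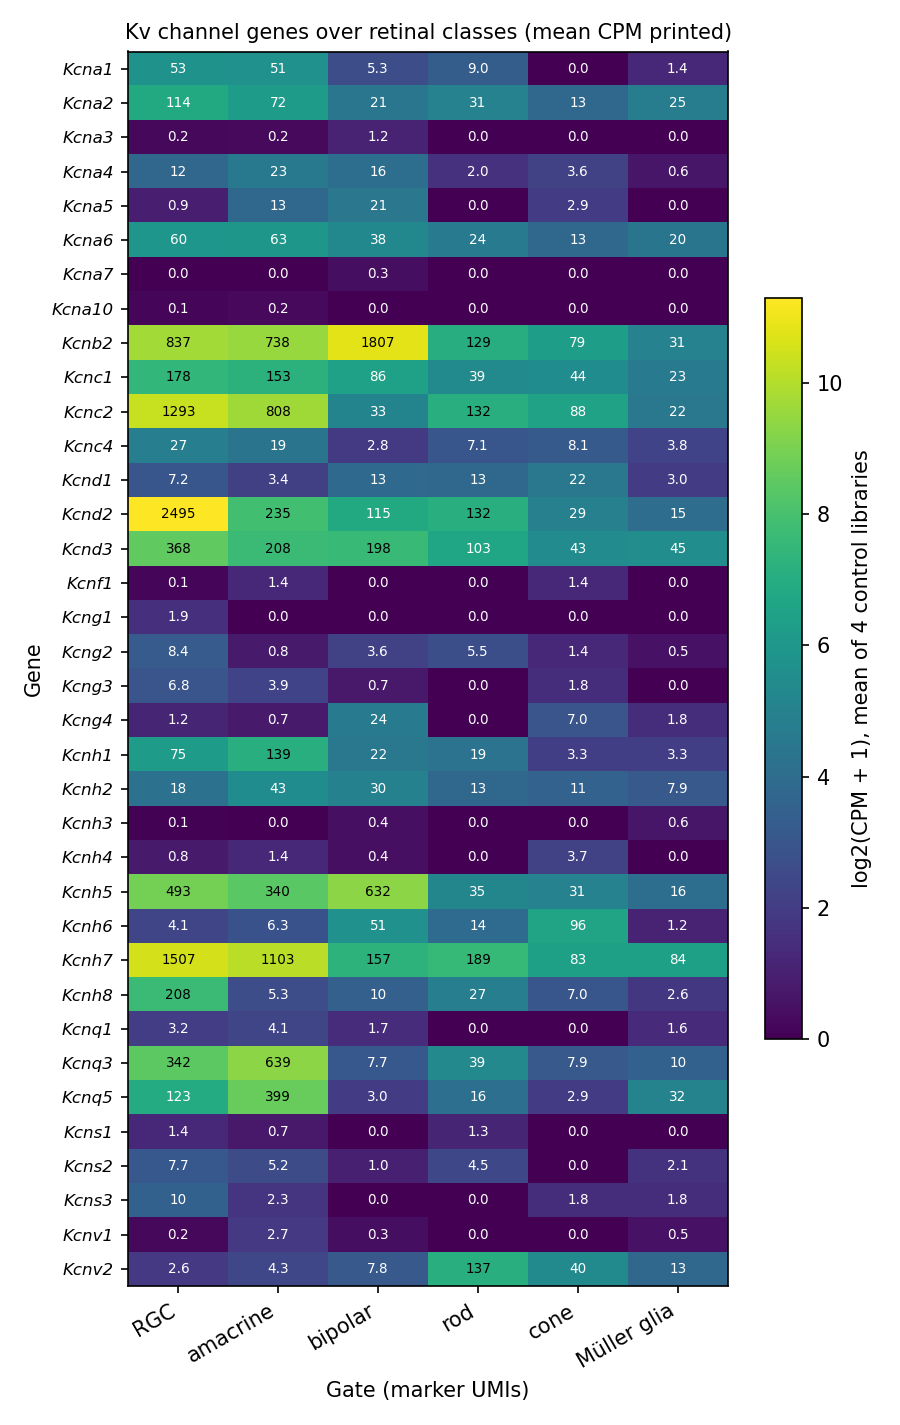
Mean CPM of 36 Kv genes in the 6 class gates of the 4 control libraries, with genes in rows, gates in columns, the mean printed in each cell and the colour giving log2(CPM + 1). Kcnv2 reaches its highest values in the rod and cone columns, Kcnh6 in the cone and bipolar columns and Kcnd2 in the RGC column.

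Kcnv2, the silent subunit that joins Kv2 channels in photoreceptors, was higher in both photoreceptor gates than in the RGC gate. It measured 120.4, 152, 134 and 143 CPM in rod-gated and 52.1, 43.6, 49.3 and 15.0 CPM in cone-gated nuclei of control libraries 1 to 4, against 3.66, 3.09, 2.14 and 1.70 CPM in RGC-gated nuclei. Neither photoreceptor gate overlapped the RGC gate in any library, with log2 fold changes (here and below ± their standard error, SE) of 5.14 ± 0.31 (SE, adjusted p = 9.00e-51) for rods and 3.47 ± 0.52 (SE, adjusted p = 2.15e-10) for cones. The cKO libraries gave 111, 119, 151 and 163 CPM in the rod gate and 76.3, 68.5, 55.6 and 76.1 CPM in the cone gate. The other classes were lower than both on average, at 4.27 ± 2.35 CPM in the amacrine, 7.84 ± 2.96 CPM in the bipolar and 12.5 ± 8.79 CPM in the Müller glia gate (mean ± SD, n = 4 control libraries). Empty droplets held 84.9 ± 24.7 CPM in the control libraries. In control 1 they held 122 CPM, about the level of its rod-gated nuclei, and in controls 2 to 4 they lay below the rod gate, while in all 4 they lay above the cone gate. Summed check markers of rods (Pde6a, Sag and Reep6) reached 2172 to 2855 CPM in the cone gate of the control libraries and 4218 to 5596 CPM in the rod gate, and their part in the cone level of Kcnv2 was not tested. For a view at equal depth, nuclei under 2000 UMIs were left out (5368 of 34815 over both groups). The others were thinned to 2000 UMIs and gated again, so fewer and deeper nuclei remained. A Kcnv2 UMI was found in 13 of 62 such control nuclei (21.0%, exact 95% interval 11.7 to 33.2%) of the rod gate. In the RGC gate it was found in 27 of 4061 nuclei (0.665%, exact 95% interval 0.439 to 0.966%), where intervals cover counting error only. Without thinning the shares were 78 of 452 nuclei (17.3%, exact 95% interval 13.9 to 21.1%) and 205 of 9448 nuclei (2.17%, exact 95% interval 1.89 to 2.48%).

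Cone-gated and rod-gated nuclei were also compared directly. In this contrast the test called 4 of 9 tested members (1 higher and 3 lower) and 26.1% of all genes tested (13.5% higher and 12.6% lower). Kcnv2 was lower in cone-gated nuclei (-1.55 ± 0.33 SE, adjusted p = 0.00128). Kcnh6, which encodes the ERG-family channel Kv11.2, ran the other way. It measured 81.1, 94.4, 119.8 and 90.0 CPM in cone-gated and 4.01, 20.2, 8.94 and 23.8 CPM in rod-gated nuclei of control libraries 1 to 4 (2.85 ± 0.55 SE, adjusted p = 0.000390). In the cKO libraries cone-gated nuclei held 55.5, 41.1, 68.0 and 133 CPM and rod-gated nuclei 4.72, 7.41, 2.66 and 9.58 CPM. Cone and rod values did not overlap in the control libraries or in the cKO libraries.

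Kcnh6 was also high in bipolar nuclei, the interneurons between photoreceptors and RGCs. Bipolar-gated nuclei held 43.3, 56.3, 50.2 and 55.6 CPM and RGC-gated nuclei 3.41, 4.42, 4.23 and 4.44 CPM in control libraries 1 to 4 (3.51 ± 0.22 SE, adjusted p = 3.91e-28), while cone-gated nuclei differed from RGC-gated nuclei by 4.05 ± 0.36 (SE, adjusted p = 3.03e-27). Within the bipolar gate, nuclei of ON cone bipolar cells held 67.4 ± 22.5 CPM and those of rod bipolar cells 17.9 ± 9.45 CPM. Empty droplets held 5.31 ± 2.58 CPM, less than either level.

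**Figure D2:**
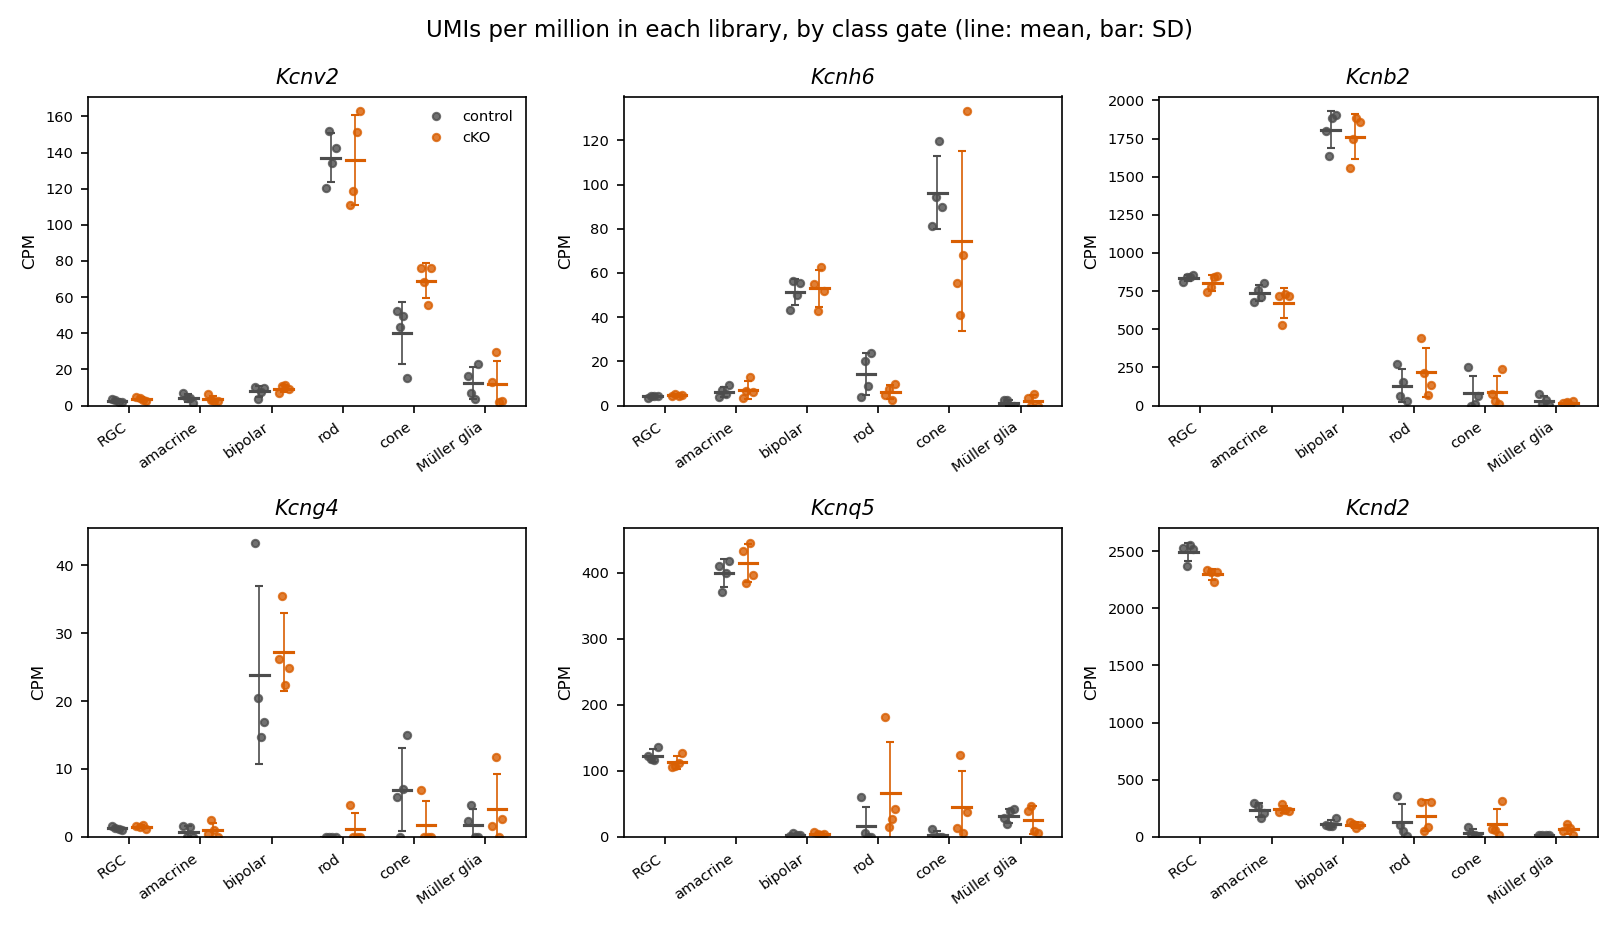
CPM (linear axis from 0) of Kcnv2, Kcnh6, Kcnb2, Kcng4, Kcnq5 and Kcnd2 in each library of the 6 class gates, with control libraries in grey, cKO libraries in orange, a line at the mean and a bar of 1 SD. Kcnv2 stands highest in the rod gate, Kcnh6 in the cone gate, Kcnb2 and Kcng4 in the bipolar gate, Kcnq5 in the amacrine gate and Kcnd2 in the RGC gate in both groups.

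Kcnb2, which encodes the Kv2 pore Kv2.2, was high in other cells. Starburst amacrine nuclei, the cholinergic cells of direction selectivity, held 3228, 3832, 3829 and 3960.1 CPM in control libraries 1 to 4 and the other amacrine-gated nuclei 529, 501, 518 and 590.3 CPM. The log2 fold change was 2.73 ± 0.13 (SE, adjusted p = 4.21e-27) in the control and 2.54 ± 0.15 (adjusted p = 8.04e-21) in the cKO libraries. ON cone bipolar nuclei held 3427, 3263, 3653 and 3561 CPM against 967, 622, 865 and 906 CPM in the other bipolar-gated nuclei (2.00 ± 0.10 SE, adjusted p = 8.45e-13). In both contrasts the gate was several times higher in every library. RGC-gated nuclei held 837 ± 19.4 CPM. In the RGC type gated by Zic1, Kcnb2 measured 368, 347, 374 and 387 CPM against 819 to 871 CPM in the other RGC-gated nuclei (-1.22 ± 0.068 SE, adjusted p = 6.95e-69), lower in all 4 libraries.

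Kcng4 (Kv6.4) is a silent Kcng subunit. Bipolar-gated nuclei held 43.3, 20.5, 14.8 and 16.9 CPM in control libraries 1 to 4, against 1.54, 1.29, 1.11 and 1.04 CPM in RGC-gated nuclei (4.06 ± 0.36 SE, adjusted p = 9.64e-19). Within the bipolar gate it was higher in ON cone bipolar nuclei, with 74.9, 49.9, 32.4 and 32.1 CPM against 27.1, 2.08, 4.65 and 7.74 CPM in other bipolar-gated nuclei (2.20 ± 0.48 SE, adjusted p = 0.00123). RGC-gated nuclei as a whole were near 1 CPM, yet those of the Spp1 gate, the marker of alpha-type RGCs, held 15.1, 12.7, 14.6 and 12.8 CPM in control libraries 1 to 4 and 11.4, 13.6, 11.6 and 10.5 CPM in cKO libraries 10 to 13. The remaining RGC-gated nuclei held 0.405 to 1.17 CPM, so that the ranges did not overlap (4.48 ± 0.42 SE, adjusted p = 1.15e-24). A higher call in the ipRGC gate, of 2.36 ± 0.84 (SE, adjusted p = 0.0437), rested on 8 UMIs, was seen in 2 of 3 control libraries and did not pass in the cKO libraries, at 1.59 ± 0.85 (adjusted p = 0.267). Of the 259 ipRGC-gated nuclei of both groups, 40 also passed the Spp1 gate, and their part in this call was not tested. Empty droplets held 7.31 ± 2.72 CPM of Kcng4. In the Foxp2 gate Kcng4 was lower, at 1.36, 0.253, 0 and 0.335 CPM against 1.18 to 1.57 CPM (-1.90 ± 0.65 SE, adjusted p = 0.0290), a call that rests on 4 UMIs and was lost without control 3 (log2 fold change -1.47) or control 4 (-1.95).

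Kcng2 (Kv6.2) was high in a pair of RGC gates. Spp1-gated nuclei held 45.2, 49.5, 51.9 and 84.3 CPM and Chrm2-gated nuclei, which express a muscarinic receptor gene and Ppp1r1c, held 35.2, 40.7, 47.4 and 39.7 CPM in control libraries 1 to 4. RGC-gated nuclei outside these gates held 5.06 to 7.60 and 5.82 to 7.71 CPM, with log2 fold changes of 3.31 ± 0.17 (SE, adjusted p = 2.42e-82) and 2.68 ± 0.18 (SE, adjusted p = 1.90e-31). Both gates stood above the rest in all 4 libraries, and empty droplets held 8.50 ± 1.07 CPM. Kcng2 was low elsewhere, at 1.90, 0.813, 1.65 and 2.47 CPM in the Cartpt gate (-2.53 ± 0.34 SE, adjusted p = 3.26e-08). It was at 2.03, 4.31, 2.55 and 4.02 CPM in the Foxp2 gate (-1.37 ± 0.21 SE, adjusted p = 1.23e-06). Zic1-gated nuclei had 1 UMI in the control libraries, a 19.0-fold lower level (95% counting interval 3.40 to 752).

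Kcng3 (Kv6.3), at 6.77 ± 0.441 CPM in the RGC gate, was higher in starburst nuclei, with 28.7, 28.6, 39.3 and 45.0 CPM in control libraries 1 to 4 against 2.54, 1.89, 1.45 and 1.03 CPM in other amacrine-gated nuclei (4.28 ± 0.76 SE, adjusted p = 7.27e-06). It was also higher in the RGC gate of intrinsically photosensitive cells (ipRGCs, gated by Opn4 and Eomes), at 26.3, 36.5 and 20.8 CPM in control libraries 2 to 4, since control 1 had only 10 such nuclei (1.98 ± 0.37 SE, adjusted p = 1.41e-06). Cartpt-gated nuclei held 11.4, 15.9, 8.24 and 8.63 CPM (0.84 ± 0.22 SE, adjusted p = 0.00345), but this call was lost without control 2 (log2 fold change 0.45). No Kcng3 UMI was counted in rod-gated or Müller glia-gated nuclei of the control libraries, which puts them at least 1.56-fold and 3.76-fold lower than the 6.83 CPM of RGC-gated nuclei summed over the control libraries (floor of 3 UMIs over the group). The rod call was lost without control 2, at a fitted log2 fold change of -8.89. Kcng1 (Kv6.1) had no UMI in control amacrine-gated nuclei, at least 5.22-fold lower than the 2.00 CPM of RGC-gated nuclei summed over the control libraries. In Spp1-gated nuclei it had 1 UMI, 8.23-fold lower with a 95% counting interval of 1.46 to 327, a call lost without control 2 or control 4 (log2 fold change -2.22 and -2.69).

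Kcnf1 (Kv5.1), another silent subunit, was too rare for a test in any contrast. In starburst nuclei control libraries 1 to 4 held 3, 3, 2 and 2 UMIs or 43.0, 17.1, 15.7 and 15.0 CPM, while other amacrine-gated nuclei held 0 and RGC-gated nuclei 9 UMIs (0.0961 ± 0.0735 CPM). In the cKO libraries 10, 12 and 13 starburst nuclei held 1, 3 and 0 UMIs, and RGC-gated nuclei of cKO libraries 10 to 13 held 17 UMIs (0.219 ± 0.0955 CPM). The values are given as a description, chosen after they were seen.

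The Kcns subunits differed from one another. Kcns3 (Kv9.3) was highest in the ipRGC gate at 42.8 ± 16.5 CPM (n = 3 control libraries). In that gate the cKO libraries were lower, with a log2 fold change of -0.89 against control that was not called. Kcns3 was also raised in the Foxp2 gate at 12.9, 26.3, 27.1 and 18.1 CPM in control libraries 1 to 4 against 7.20 to 10.3 CPM elsewhere (1.41 ± 0.12 SE, adjusted p = 1.02e-12). It was lower in the Cartpt gate at 1.90, 0.406, 0.824 and 3.08 CPM (-2.99 ± 0.35 SE, adjusted p = 6.51e-10). No UMI was seen in bipolar-gated or rod-gated nuclei of the control libraries, at least 8.98-fold and 2.42-fold below the 10.6 CPM of the summed RGC-gated nuclei. Kcns1 (Kv9.1) was higher in the Foxp2 gate, with 4.07, 3.80, 4.79 and 4.36 CPM against 0.569 to 1.18 CPM (2.22 ± 0.33 SE, adjusted p = 7.08e-07), and every Foxp2 value lay above every other value. Kcns2 (Kv9.2) had no UMI in cone-gated nuclei of the control libraries, at least 1.35-fold below the 7.81 CPM of the summed RGC-gated nuclei, and the call was lost without control 1, control 2 or control 3 (fitted log2 fold changes of -9.54, -9.04 and -9.28). Empty droplets held more of Kcns2 (30.2 ± 2.14 CPM) and Kcns1 (4.22 ± 1.04 CPM) than RGC-gated nuclei did on average. Kcnv1 (Kv8.1) was higher in amacrine-gated nuclei at 3.19, 3.92, 2.28 and 1.44 CPM against 0.163, 0.204, 0.222 and 0.164 CPM in RGC-gated nuclei (3.65 ± 0.56 SE, adjusted p = 8.52e-06), without overlap at this low level.

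Among Kv1 genes, Kcna1 (Kv1.1) and Kcna2 (Kv1.2), subunits of axonal channels, had the highest levels per length of gene in RGC-gated nuclei. Because 3′ libraries of nuclei also prime within introns, levels of different genes are compared only after division by gene span. Kcna1 held 88.5 ± 11.7 and Kcna2 80.7 ± 6.89 CPM per 10 kb in the control RGC gate, and further down came Kcnc2 (65.4 ± 1.87), Kcnd2 (48.4 ± 1.57), Kcnh7 (30.7 ± 0.483) and Kcnc1 (29.3 ± 1.92). The ranges of Kcna1 and Kcna2 overlapped, and so did those of Kcnh7 and Kcnc1, whereas the other neighbours among these 6 genes did not. In CPM, Kcna1 measured 63.4, 49.1, 50.7 and 48.8 and Kcna2 122, 114, 100.1 and 118 in RGC-gated nuclei of control libraries 1 to 4. Empty droplets held 50.8 ± 4.42 CPM of Kcna1, inside the range of the RGC gate, and 187 ± 8.26 CPM of Kcna2, above every RGC value.

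Kcna1 nevertheless varied between RGC types. Spp1-gated nuclei held 202, 118, 138 and 142 CPM in control libraries 1 to 4 and 169, 141, 148 and 112 CPM in cKO libraries 10 to 13, against 43.8 to 59.6 CPM in the other control RGC-gated nuclei (1.55 ± 0.089 SE, adjusted p = 3.69e-64). Chrm2-gated nuclei held 108, 84.7, 89.6 and 96.5 CPM (0.94 ± 0.095 SE, adjusted p = 6.87e-17). Cone-gated nuclei of the control libraries had no Kcna1 UMI, at least 8.92-fold lower than the 51.6 CPM of the summed RGC-gated nuclei. Kcna5 (Kv1.5), which is nearly absent from RGC-gated nuclei (1.06, 0.781, 0.845 and 1.10 CPM), was higher in amacrine-gated nuclei at 11.2, 15.7, 10.5 and 15.4 CPM (3.74 ± 0.26 SE, adjusted p = 1.91e-11). Bipolar-gated nuclei were higher as well, at 22.4, 29.4, 14.8 and 19.3 CPM (4.42 ± 0.38 SE, adjusted p = 4.59e-19). Empty droplets held 28.7 ± 4.95 CPM of Kcna5, above the mean of both gates, and rod-gated nuclei of the control libraries had no UMI.

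Kv3 genes encode the channels of fast repolarisation. Kcnc2 (Kv3.2) measured 1338, 1307, 1258 and 1267 CPM in RGC-gated and 31.4, 26.9, 36.9 and 38.7 CPM in bipolar-gated nuclei of control libraries 1 to 4 (-5.42 ± 0.12 SE, adjusted p = 4.85e-68), far apart in every library. Kcnc1 (Kv3.1) was at 186, 187, 162 and 177 CPM in RGC-gated nuclei and was higher in starburst nuclei, at 416, 359.7, 417 and 390.0 CPM against 135, 135, 149 and 127 CPM in other amacrine-gated nuclei (1.47 ± 0.17 SE, adjusted p = 6.93e-11). In ON cone bipolar nuclei it was lower, at 30.8, 53.2, 56.6 and 77.1 CPM against 97.1, 104, 123 and 89.1 CPM (-1.06 ± 0.24 SE, adjusted p = 0.00183), where empty droplets held 237 ± 3.40 CPM.

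Kv4 channels carry the A-type current, and Kcnd2 (Kv4.2) was higher in RGC-gated nuclei than in every other class. It measured 2529, 2375, 2555 and 2519.9 CPM there in control libraries 1 to 4, 299, 270.1, 163 and 209 CPM in amacrine-gated nuclei (-3.54 ± 0.090 SE, adjusted p = 6.27e-20). Müller glia-gated nuclei held 18.7, 14.2, 12.9 and 15.3 CPM (-7.61 ± 0.18 SE, with an adjusted p too small for edgeR's quasi-likelihood test to give as a number above 0). Rod-gated nuclei held 361, 106, 53.6 and 7.93 CPM (-5.05 ± 0.33 SE, adjusted p = 5.15e-46). Cone-gated nuclei held 81.1, 21.8, 14.1 and 0 CPM (-6.71 ± 0.37 SE, adjusted p = 3.82e-70). The rod values spread widely, yet no class gate reached the RGC gate in any library. Empty droplets held 280.4 ± 56.6 CPM, above all 4 of these gates on average.

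Within RGCs, Kcnd2 differed between types. Chrm2-gated nuclei held 8708, 8943, 9258 and 8728 CPM in control libraries 1 to 4 and 9076, 9401, 8884 and 9326 CPM in cKO libraries 10 to 13, against 2089 to 2292 CPM in the other control RGC-gated nuclei (2.07 ± 0.034 SE, adjusted p = 4.04e-114). Zic1-gated nuclei held 5913, 5220.0, 5426 and 5324 CPM (1.17 ± 0.047 SE, adjusted p = 6.73e-134). At the other end lay the Cartpt gate, the marker of direction-selective RGCs, with 173, 197, 255 and 84.4 CPM (-3.99 ± 0.089 SE, adjusted p = 1.78e-40). The ipRGC gate held 1020.2, 1109.7 and 1191 CPM in control libraries 2 to 4 (-1.29 ± 0.089 SE, adjusted p = 7.22e-46). Ordered by mean control CPM, the types ran from Chrm2 (8909 ± 256) over Zic1 (5471 ± 307), Foxp2 (4052 ± 277), Spp1 (1911 ± 201), Tbr1 (1637 ± 387) and ipRGC (1107 ± 85.4) to Cartpt (177 ± 70.7). Of neighbours in this order, the ranges of the Spp1 gate (1738 to 2132) and the Tbr1 gate (1299.8 to 2176) overlapped.

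Kcnd3 (Kv4.3) was higher in ON cone bipolar nuclei, at 269, 329, 461 and 238 CPM against 149, 144, 119 and 89.1 CPM in other bipolar-gated nuclei (1.28 ± 0.17 SE, adjusted p = 2.93e-06). Among RGCs it was lower in the ipRGC gate, at 198, 146 and 199 CPM in control libraries 2 to 4 against 336 to 401 CPM in the other RGC-gated nuclei (-1.19 ± 0.12 SE, adjusted p = 1.07e-21).

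EAG-family genes split the retina by cell type. Kcnh1 (Kv10.1) stood at 74.6 ± 5.64 CPM in RGC-gated nuclei and was higher in the ipRGC gate, with 350.2, 329 and 275 CPM in control libraries 2 to 4 (2.02 ± 0.11 SE, adjusted p = 9.47e-67). It was also higher in the Cartpt gate with 128, 147, 135 and 181 CPM (1.08 ± 0.067 SE, adjusted p = 4.69e-20) and in the Tbr1 gate with 147, 133, 95.4 and 142 CPM (0.80 ± 0.10 SE, adjusted p = 2.68e-14). It was lower in the Foxp2 gate at 9.49, 16.7, 15.0 and 9.05 CPM (-2.67 ± 0.10 SE, adjusted p = 4.24e-25). It was likewise lower in the Chrm2 gate at 8.81, 21.2, 17.8 and 17.1 CPM (-2.14 ± 0.14 SE, adjusted p = 3.60e-31) and in the Zic1 gate at 31.0, 12.6, 10.3 and 32.1 CPM (-2.05 ± 0.19 SE, adjusted p = 9.73e-26). The higher and the lower types did not overlap in any library. Among amacrine cells, nuclei gated as glycinergic by Slc6a9 held 698, 659, 708 and 617 CPM, and GABAergic nuclei 55.3, 94.4, 79.8 and 89.8 CPM. Starburst nuclei held 14.3, 22.8, 0 and 0 CPM and were lower than other amacrine-gated nuclei (-3.97 ± 0.43 SE, adjusted p = 1.92e-11). Kcnh5 (Kv10.2) measured 1262, 1349.9, 1294 and 1268 CPM in rod bipolar nuclei and 79.3, 69.8, 89.0 and 83.6 CPM in ON cone bipolar nuclei, which were lower than the other bipolar-gated nuclei (-3.64 ± 0.15 SE, adjusted p = 2.48e-14). The glycinergic and rod bipolar levels are descriptions without a test, and in both cases no library of one gate reached the range of the other.

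Kcnh7 (Kv11.3, of the ERG group) reached 3031, 3123, 3099.6 and 3372 CPM in glycinergic and 953, 992, 766 and 934 CPM in GABAergic amacrine nuclei of control libraries 1 to 4. Starburst nuclei were lower, at 186, 246, 142 and 97.5 CPM (-2.85 ± 0.18 SE, adjusted p = 5.46e-21, against other amacrine-gated nuclei). Among RGCs the Zic1 gate held 3342, 2839.8, 2800.1 and 3053 CPM (1.02 ± 0.050 SE, adjusted p = 3.18e-90), above the other RGC-gated nuclei in every library. Kcnh8 (Kv12.1, of the ELK group) measured 199, 211, 216 and 205 CPM in RGC-gated nuclei against 5.59, 6.53, 7.76 and 1.44 CPM in amacrine-gated (-5.38 ± 0.14 SE, adjusted p = 4.75e-20) and 2.34, 2.36, 5.55 and 0 CPM in Müller glia-gated nuclei (-6.35 ± 0.28 SE, adjusted p = 1.23e-112). Across RGC types Kcnh8 was lower in the ipRGC gate at 87.0, 136 and 69.4 CPM (-1.25 ± 0.14 SE, adjusted p = 1.18e-17) and the Spp1 gate at 27.1, 46.4, 32.8 and 40.5 CPM (-2.50 ± 0.10 SE, adjusted p = 3.45e-123). The Chrm2 gate held 39.6, 61.1, 58.4 and 48.7 CPM (-1.98 ± 0.088 SE, adjusted p = 3.46e-50) and the Tbr1 gate 118, 110.3, 128 and 134 CPM (-0.79 ± 0.089 SE, adjusted p = 8.39e-17), both lower as well. It was higher in the Zic1 gate at 284, 329.8, 368 and 314 CPM (0.67 ± 0.077 SE, adjusted p = 2.34e-16). All values of the 4 lower types lay below the RGC gate as a whole, and all Zic1 values above it.

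Of the Kcnq genes, Kcnq5 (Kv7.5), a subunit of M-type channels, measured 536, 489, 497 and 593 CPM in GABAergic and 17.0, 0, 0 and 0 CPM in glycinergic amacrine nuclei of control libraries 1 to 4. The amacrine gate as a whole was above RGC-gated nuclei, at 410.5, 370.3, 399 and 418 against 122, 117, 116 and 137 CPM (1.60 ± 0.049 SE, adjusted p = 2.47e-18). Starburst nuclei held 0, 28.6, 0 and 0 CPM (-5.47 ± 0.37 SE, adjusted p = 1.10e-19, against other amacrine-gated nuclei). In starburst nuclei 3 of 4 libraries had no Kcnq5 UMI and control 2 had all 5. Among RGC types Kcnq5 ran from 551, 431 and 567 CPM in the ipRGC gate of control libraries 2 to 4 (2.05 ± 0.11 SE, adjusted p = 3.37e-81) to 8.81, 8.96, 16.1 and 10.8 CPM in the Chrm2 gate of control libraries 1 to 4 (-3.45 ± 0.14 SE, adjusted p = 5.20e-54). Foxp2-gated nuclei held 203, 205, 212 and 245 CPM (1.04 ± 0.043 SE, adjusted p = 1.48e-23). Tbr1-gated nuclei held 202, 146, 164 and 222 CPM (0.56 ± 0.085 SE, adjusted p = 2.67e-09). The Tbr1 call was lost without control 4 (log2 fold change 0.49, under the fold threshold). All values of these 3 higher types lay above the RGC gate as a whole, and all Chrm2 values below it.

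Kcnq3 (Kv7.3), a subunit of the axonal M-channel, measured 346, 346, 340.2 and 335 CPM in RGC-gated nuclei of control libraries 1 to 4. It was lower in bipolar-gated nuclei at 5.97, 11.5, 5.91 and 7.25 CPM (-5.56 ± 0.17 SE, adjusted p = 1.77e-53).

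The remaining Kv genes were read after their values were seen. Kcna4 (Kv1.4) measured 12.4 ± 1.02 CPM in RGC-gated, 22.6 ± 4.74 CPM in amacrine-gated and 16.0 ± 6.95 CPM in bipolar-gated nuclei. Kcna6 (Kv1.6) was at 59.9 ± 4.23 CPM in RGC-gated and 62.8 ± 7.50 CPM in amacrine-gated nuclei, and lower in bipolar-gated nuclei at 37.6 ± 8.01 CPM (-0.81 ± 0.15 SE, adjusted p = 3.66e-06). Kcnc4 (Kv3.4) measured 27.0 ± 3.34 CPM in the RGC gate and 2.78 ± 1.31 CPM in the bipolar gate (-3.40 ± 0.36 SE, adjusted p = 1.93e-14), and it was also lower in cone-gated (-2.32 on the log2 scale) and Müller glia-gated nuclei (-3.12). None of these 3 genes was highest in a photoreceptor or glial gate. Empty droplets held 20.9 ± 1.37 CPM of Kcna4, 110.2 ± 7.34 CPM of Kcna6 and 72.8 ± 5.14 CPM of Kcnc4, and for Kcna6 and Kcnc4 this was above the mean of every class gate. Kcnd1 (Kv4.1) measured 3.44 ± 1.04 CPM in amacrine-gated, 7.18 ± 0.722 CPM in RGC-gated, 13.3 ± 2.19 CPM in bipolar-gated and 22.1 ± 5.80 CPM in cone-gated nuclei. Rod-gated nuclei held 13.2 ± 14.0 CPM, and the Müller glia gate was the lowest class. Kcnh2 (Kv11.1, the ERG channel of the heart) was higher in amacrine-gated nuclei at 43.4 ± 6.49 CPM against 17.7 ± 1.54 CPM in RGC-gated nuclei (1.21 ± 0.10 SE, adjusted p = 2.91e-10) and lower in starburst than in other amacrine-gated nuclei (-2.60 ± 0.57 SE, adjusted p = 0.000296). Empty droplets held 66.6 ± 3.24 CPM of Kcnh2, above both class levels, and 10.1 ± 1.83 CPM of Kcnd1. Kcnh4 and Kcnq1 were tested and not called, at 0.780 ± 0.124 and 3.18 ± 0.969 CPM in the RGC gate.

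**Figure D3:**
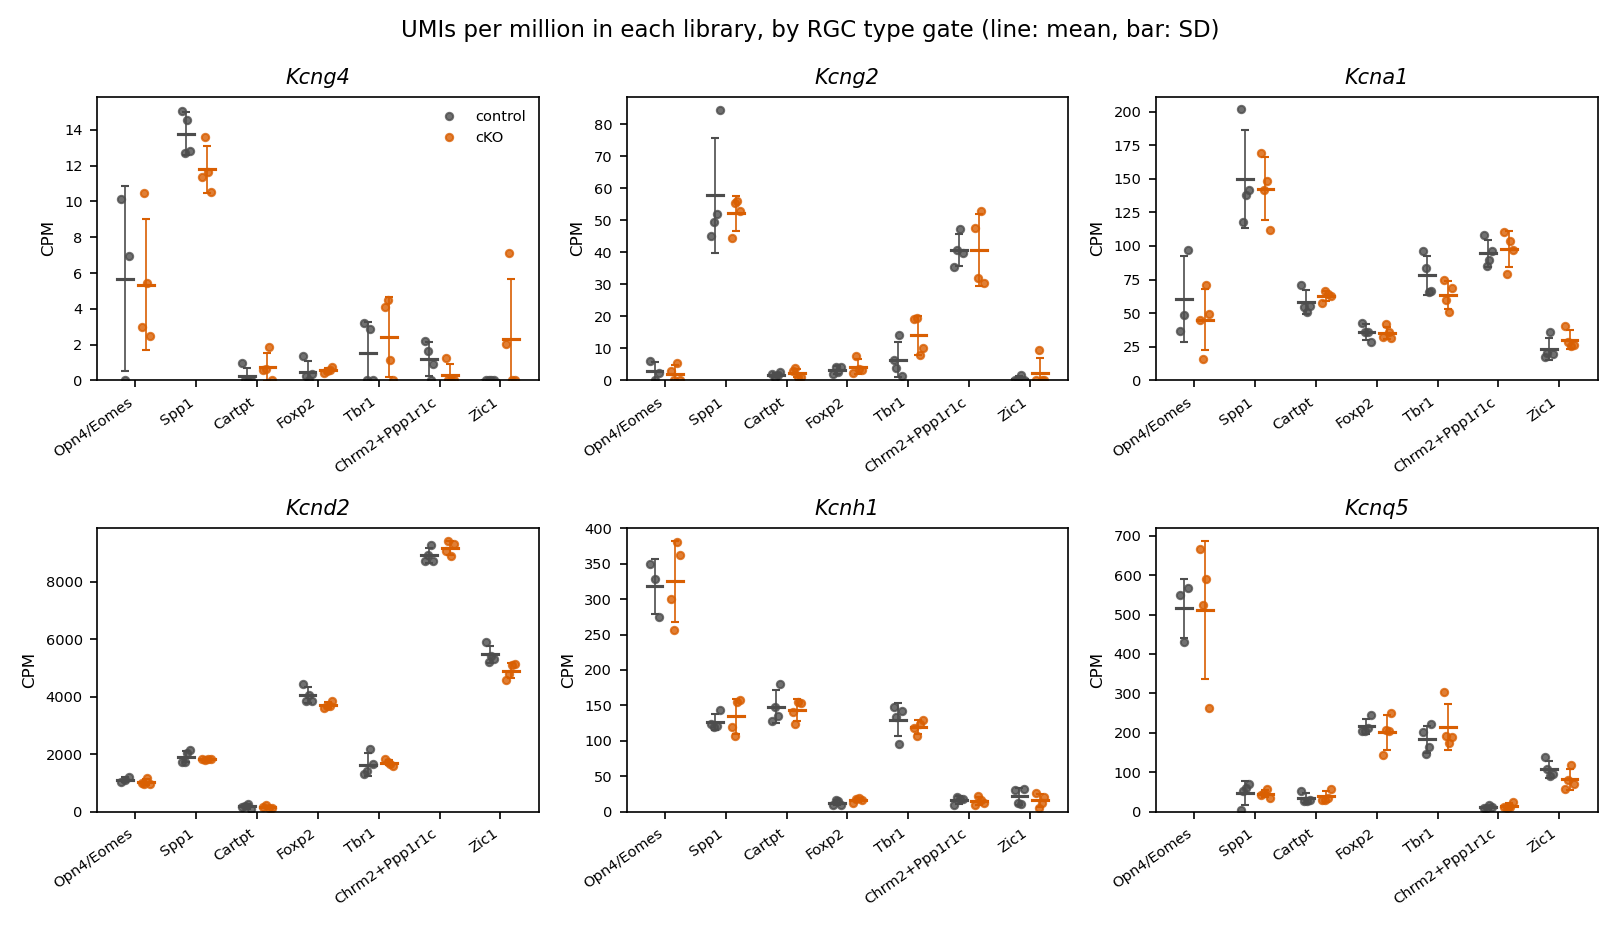
CPM (linear axis from 0) of Kcng4, Kcng2, Kcna1, Kcnd2, Kcnh1 and Kcnq5 in each library of the 7 RGC type gates, named by their markers, with control libraries in grey, cKO libraries in orange, a line at the mean and a bar of 1 SD. Kcnd2 is highest in the Chrm2 gate and lowest in the Cartpt gate in both groups, and Kcng4 is highest in the Spp1 gate.

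Over the within-class and RGC type contrasts, calls were counted against the other nuclei of the same class. The starburst contrast called 13 of 21 tested members (3 higher and 10 lower) and 17.5% of all genes tested (7.37% higher and 10.1% lower). In the ON cone bipolar contrast the calls were 9 of 16 tested members (5 higher and 4 lower) and 18.3% of all genes tested (9.04% higher and 9.24% lower). Among RGC types the Spp1 gate had the most calls, with 19 of 31 tested members (10 higher and 9 lower) and 19.7% of all genes tested (8.69% higher and 11% lower). Its nuclei were also deeper, with a mean of the control libraries' medians of 17429 UMIs against 8008 in the other RGC-gated nuclei. The count of members called in the Spp1 gate fell when nuclei were thinned after gating, as given below. For the ipRGC gate the test called 13 of 33 tested members (8 higher and 5 lower) and 10.8% of all genes tested (5.03% higher and 5.73% lower). The Foxp2 gate gave 13 of 33 tested members (7 higher and 6 lower) and 11.4% of all genes tested (4.4% higher and 7.02% lower). Chrm2-gated nuclei gave 12 of 32 tested members (4 higher and 8 lower) and 10% of all genes tested (3.51% higher and 6.49% lower). Zic1-gated nuclei gave 12 of 32 tested members (4 higher and 8 lower) and 7.09% of all genes tested (2.27% higher and 4.81% lower). The Cartpt gate gave 10 of 31 tested members (3 higher and 7 lower) and 9.18% of all genes tested (3.64% higher and 5.54% lower), and the split of members became 5 higher and 7 lower without the TMM factors. The Tbr1 gate gave 6 of 33 tested members (4 higher and 2 lower) and 3.38% of all genes tested (1.27% higher and 2.11% lower). In the 7 RGC types, median log2 fold changes of tested members lay between -0.26 (Zic1) and 0.018 (Foxp2), and those of all genes between -0.077 (ipRGC) and 0.0012 (Foxp2). Of 85 calls in RGC types, 69 passed again in the cKO libraries and the others kept their sign. Of 26 within-class calls 21 passed again, 2 could not be tested there and the others kept their sign. Over all 15 contrasts, 33 of 40 Kv genes were called at least once and 23 of them both higher in 1 gate and lower in another. Only higher were 4, only lower 6, and 7 were called in none, of which 5 (Kcna3, Kcna7, Kcna10, Kcnf1 and Kcnh3) were too rare for any test. Of all genes, single contrasts called from 540 of 15968 tested (Tbr1) to 8021 of 17258 tested (Müller glia). The share of all genes called at least once over the 15 contrasts is not given, so these totals are a description only.

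**Figure D4:**
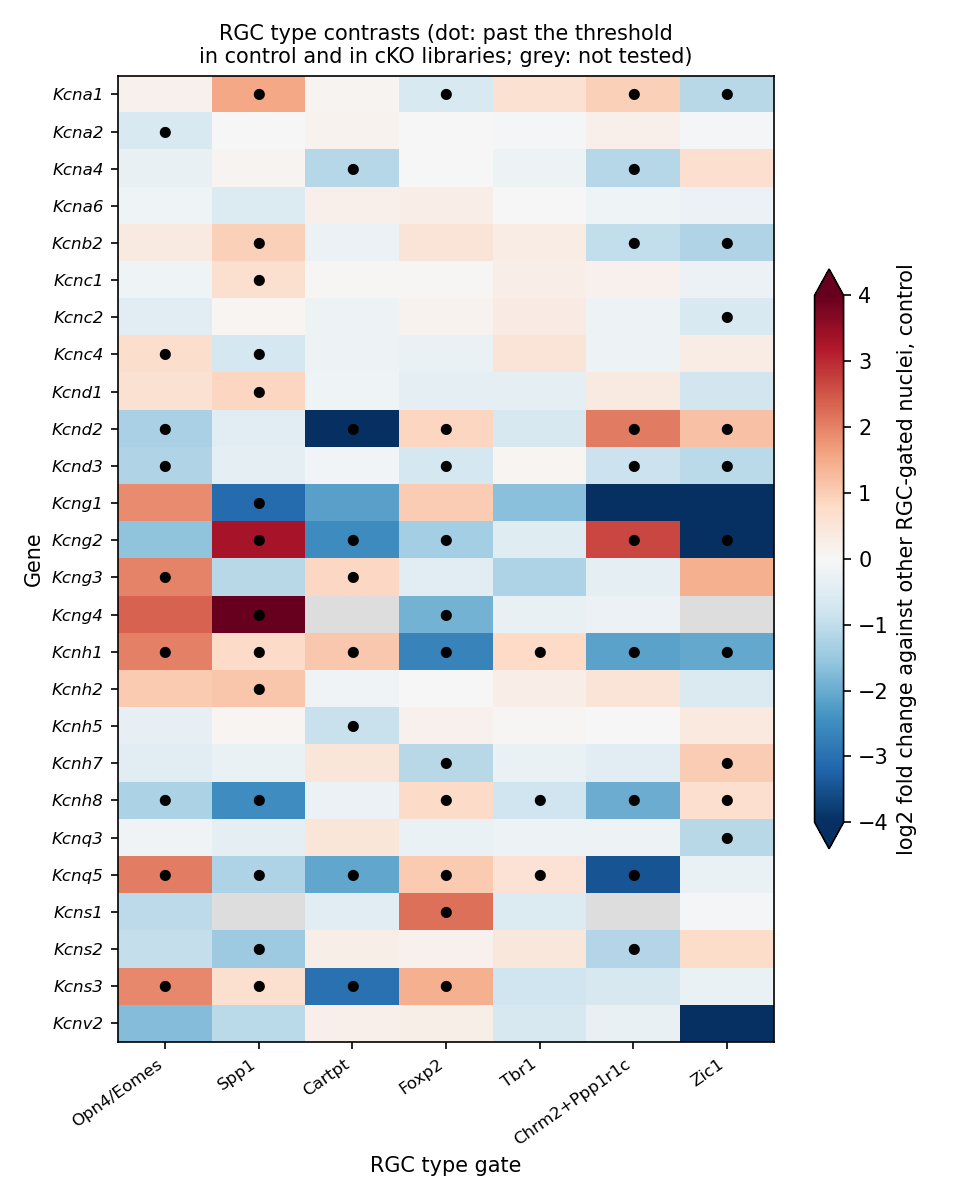
Log2 fold change of Kv genes in rows against the other RGC-gated nuclei in each of the 7 RGC type gates in columns (control libraries), for Kv genes called in at least 1 of them, on a colour scale that ends at -4 and 4. Dots mark pairs called in the control and in the cKO libraries and grey cells were not tested. Rows such as Kcnd2, Kcnh1 and Kcnq5 hold dots of both signs, and the Tbr1 column holds the fewest dots.

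The same contrasts were read for 19 listed partner genes that help Kv channels to assemble, traffic or cluster (Kcnab, Kcnip, Dpp6, Dpp10, Kcne, Amigo1, Lgi1, Adam22, Cntnap2, Cntn2 and Ank3). The tests called 11 of 15 in the amacrine (5 higher), 10 of 16 in the bipolar (2 higher), 12 of 16 in the rod (0 higher), 13 of 16 in the cone (2 higher) and 11 of 16 in the Müller glia contrast (0 higher). Over all genes tested the shares called were 27.3%, 43.1%, 37.6%, 35.6% and 46.5% in the same order. Kcnip4, a calcium-binding partner of Kv4 channels, was lower than in RGC-gated nuclei in all 5 classes, with log2 fold changes of -3.94 (amacrine), -2.76 (bipolar), -4.55 (rod), -6.28 (cone) and -4.65 (Müller glia), each called in both groups. Kcnip2 of the same family was higher in the Spp1 gate (3.34 ± 0.21 SE, adjusted p = 3.44e-55). Kcne2, a single-pass subunit of several Kv channels, was higher in cone-gated (7.44 ± 0.35 SE, adjusted p = 5.48e-100) and bipolar-gated nuclei (4.63 ± 0.40 SE, adjusted p = 4.60e-19). Kcnab1, a beta subunit of Kv1 channels, was higher in amacrine-gated (3.92 ± 0.055 SE, adjusted p = 1.26e-24), bipolar-gated (3.19 ± 0.085 SE, adjusted p = 1.51e-59) and cone-gated nuclei (3.48 ± 0.16 SE, adjusted p = 2.01e-101). In RGC types between 1 (Tbr1) and 8 (Spp1 and ipRGC) partners were called, where 3.38% (Tbr1), 19.7% (Spp1) and 10.8% (ipRGC) of all genes were. The 1 call among the Tbr1 partners, Kcnip3 (0.57 ± 0.16 SE, adjusted p = 0.00606), had the other sign in the cKO libraries, at -0.017 ± 0.15 (adjusted p = 0.982), and was lost without control 2 or control 3 (log2 fold change 0.56 and 0.53). These partners were named after their values were seen.

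Whether loss of Piezo2 from Olig2-lineage cells altered Kv genes was examined in each gate with genotype as the only term. No Kv gene was called in any of 13 gates by edgeR's quasi-likelihood test, nor by DESeq2. In the RGC gate 34 Kv genes were tested, 4 had an unadjusted p under 0.05 (against 3.52% of all genes, with 0% called), and the smallest adjusted p was 0.994. Log2 fold changes of cKO against control ran from -0.34 for Kcna5 to 0.39 for Kcnv2. Kcnd2 measured 2529, 2375, 2555 and 2519.9 CPM in control libraries 1 to 4 and 2337, 2315, 2227 and 2319.9 CPM in cKO libraries 10 to 13, a log2 fold change of -0.18 ± 0.054 (SE, unadjusted p = 0.00640, adjusted p = 0.994). Kcnc2 measured 1338, 1307, 1258 and 1267 CPM in the control and 1217, 1209, 1200.0 and 1227 CPM in the cKO libraries (-0.15 ± 0.052 SE, unadjusted p = 0.0119, adjusted p = 0.994). Kcnh8 measured 199, 211, 216 and 205 CPM and 182, 174, 192 and 198 CPM in the same order (-0.21 ± 0.076 SE, unadjusted p = 0.0157, adjusted p = 0.994). Kcnh7, named after its values were seen, was at -0.15. In these 4 genes every cKO value lay below every control value. No Kv gene had all cKO values above, where 0.537% of all tested genes were without overlap on the lower side and 3.12% on the higher side. None of these differences passed adjustment.

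These 4 genes are long, and gene span moved with the genotype difference over all genes. Of 11 tested Kv genes spanning over 150 kb, 11 were lower in the cKO RGC gate, against 7 of 23 shorter ones. Among all tested genes 74.5% of those over 150 kb were lower and 43.1% of shorter ones, a boundary chosen after the data were seen. Spearman's rho between span and log2 fold change was -0.46 across the 34 Kv genes and -0.24 across 17749 genes, which share the same 8 libraries and are not independent. The part of span in the Kv differences was not tested.

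**Figure D5:**
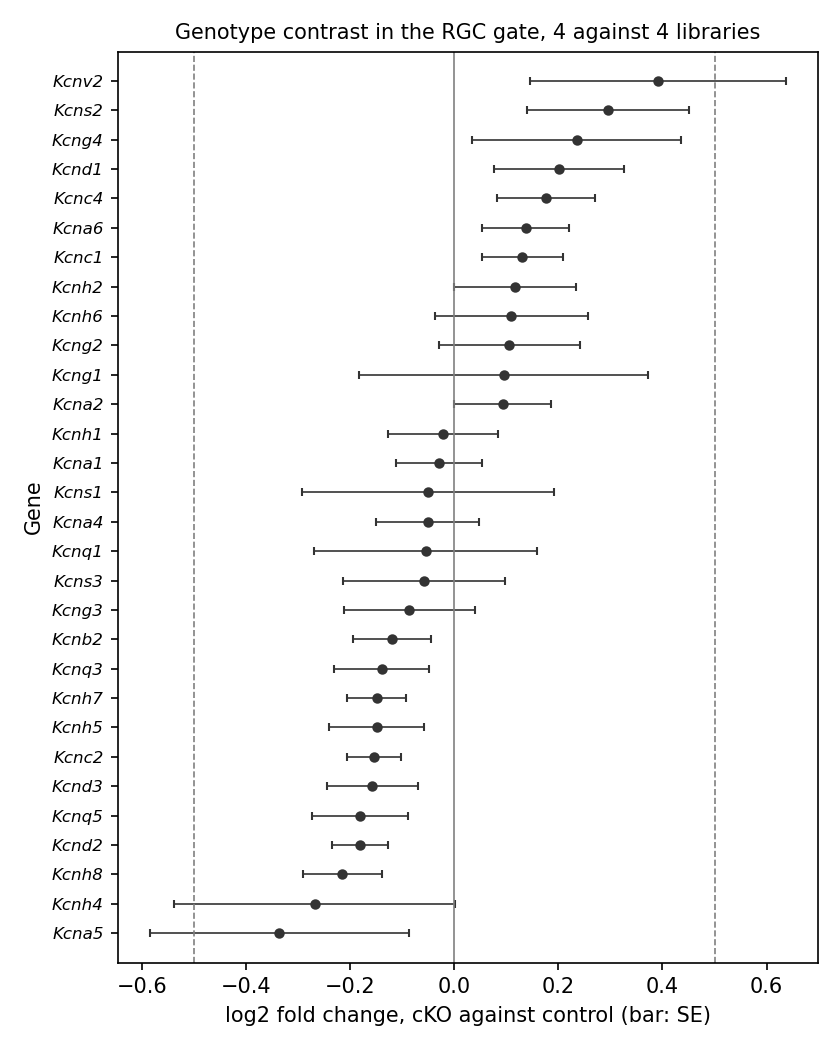
Log2 fold change of cKO against control in the RGC gate for 30 tested Kv genes, ordered by value, with bars of 1 SE and dashed lines at -0.5 and 0.5. All points lie between -0.34 and 0.39 and none was called.

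In the other class gates the Kv gene of smallest p was Kcnc2 in amacrine-gated nuclei (-0.18 ± 0.093 SE, unadjusted p = 0.0667, adjusted p = 0.9997). For bipolar-gated nuclei it was Kcnh1 (-1.06 ± 0.37 SE, unadjusted p = 0.00972, adjusted p = 0.9999), and for rod-gated nuclei Kcnq3 (0.94 ± 0.57 SE, unadjusted p = 0.123, adjusted p = 0.999992). For cone-gated nuclei it was Kcnh7 (1.19 ± 0.62 SE, unadjusted p = 0.0733, adjusted p = 0.995), and for Müller glia-gated nuclei Kcnd3 (-0.80 ± 0.35 SE, unadjusted p = 0.0313, adjusted p = 0.9998). None passed adjustment. Kcnh1 in bipolar-gated nuclei measured 16.4, 26.9, 31.0 and 12.1 CPM in control libraries 1 to 4 and 15.2, 7.10, 11.2 and 7.13 CPM in cKO libraries 10 to 13, ranges that overlapped. Kcnq3 in rod-gated nuclei measured 96.3, 25.3, 17.9 and 15.9 CPM in the control and 165, 51.8, 39.8 and 73.4 CPM in the cKO libraries. Kcnc2 in amacrine-gated nuclei measured 776, 828, 824 and 802 CPM in the control and 755, 658, 670.1 and 827 CPM in the cKO libraries. For Kcnh7 in cone-gated nuclei the values were 156, 36.3, 21.1 and 120.0 CPM and 118, 302, 24.7 and 336 CPM. The groups overlapped for all 3 genes. Kcnd3 in Müller glia-gated nuclei measured 42.2, 30.7, 61.0 and 45.9 CPM in the control and 45.9, 23.6, 12.0 and 21.3 CPM in the cKO libraries, so that cKO 11 to 13 lay below every control library and cKO 10 among them. Kcnd2 had too few UMIs for a genotype test in the Müller glia gate. Without cKO 13, whose level lay within the control range, it passed the filter and was called, so that the count of called Kv genes there became 1. It passed only through the cKO libraries in which it was high, since every control library was under the filter. This call is therefore no support for a genotype difference. Over the 7 RGC type gates 18 to 29 Kv genes were tested and 0 called, with 2 (Spp1, Cartpt, Tbr1 and Chrm2) to 6 (Foxp2) at an unadjusted p under 0.05. In the Foxp2 gate these were 6 of 29 against 4.07% of all genes, and in the ipRGC gate 5 of 21 against 5.02%. The smallest unadjusted p of a Kv gene in these gates was that of Kcnh7 in the Chrm2 gate, named after its values were seen. It measured 1143, 1039.7, 1122 and 1143 CPM in the control and 868, 964, 962 and 918 CPM in the cKO libraries (-0.31 ± 0.073 SE, unadjusted p = 0.000246, adjusted p = 0.215). Every cKO value lay below every control value, as for 1.09% of all genes tested in that gate (2.66% were without overlap on the higher side), and it did not pass adjustment in edgeR. DESeq2 gave it a log2 fold change of -0.31 with an adjusted p of 0.0427, under the fold threshold, and over the other alternatives the adjusted p ran from 0.0819 to 0.985. Among all genes 2.96% (rod) to 5.81% (Chrm2) of those tested in the 13 gates had an unadjusted p under 0.05 in edgeR. In the Chrm2 gate 2 genes of all tested, neither a Kv gene, were called.

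Whether a class, within-class or type contrast itself differed between genotypes was tested by the interaction of gate and genotype. Of the 15 contrasts, 1 gave a call, for Kcnd2 in the Müller glia contrast, where 0.032% of all genes were called (0.0267% higher and 0.00533% lower). Kcnd2 in Müller glia-gated nuclei measured 18.7, 14.2, 12.9 and 15.3 CPM (8, 6, 7 and 4 UMIs) in control libraries 1 to 4 and 49.1, 112, 80.3 and 16.0 CPM (30, 19, 47 and 6 UMIs) in cKO libraries 10 to 13. Controls were close together, cKO 10 to 12 lay above them and cKO 13 lay within their range. The difference between the log2 fold changes was 2.10 ± 0.37 (SE, adjusted p = 0.000108). It stayed called without any 1 of the 8 libraries, at 1.81 to 2.40 on the log2 scale with an adjusted p of at most 0.0401 (without cKO 12), but DESeq2 gave 2.02 ± 0.57 (SE) and did not call it, at an adjusted p of 0.999999. Empty droplets held 280.4 ± 56.6 CPM in the control libraries, above every one of these values. Summed check markers of RGCs (Nefl, Nefm, Sncg, Pou4f3 and Rbpms2) in the Müller glia gate were 80.4 to 217 CPM in the control and 109 to 183 CPM in the cKO libraries, ranges that overlapped, and their part in the Kcnd2 values was not tested.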

How the data were processed

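Deposited files held UMI counts per gene and barcode for 8 snRNA-seq libraries (4 control, 4 cKO, each of 6 retinae at P120), which the authors made with Cell Ranger 7.0.0 from 3′ nuclei libraries on the GRCm39 reference and deposited before removal of free RNA, empty droplets or doublets. Whether pools came from separate animals was not labelled, so p-values measure the spread between libraries, and intervals cover counting error only. Members and gene lists were chosen with earlier results of these data known.

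Barcodes were called as nuclei by rank (10% of the 99th percentile of 8000 expected barcodes) or by a test against empty droplets (at least 500 UMIs, 10000 simulations, adjusted p of at most 0.001). Nuclei needed 200 genes and at most 5% mitochondrial UMIs, outliers beyond 5 median absolute deviations were removed (3 for mitochondrial share), and doublets were removed by a per-library score at 0.8% per 1000 nuclei. Nuclei were gated on marker UMIs, no marker being a Kv gene, and a gate entered a fit in libraries with over 10 nuclei and over 1000 UMIs.

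UMI sums per library and gate were tested in edgeR 4.0.16 (quasi-likelihood test, TMM, filterByExpr, R 4.3.3) over all genes with Benjamini-Hochberg adjustment. Class, within-class and RGC type contrasts were fitted in the control libraries, blocked by library, and repeated in the cKO libraries. Genotype was tested alone in each gate, and gate by genotype over all 8 libraries. DESeq2 1.42.0, no TMM, no filter, other nucleus calls, gates and depths, and leaving out each library were alternatives. Simulated data with 200 changed genes checked the fits. Library values are given for up to 3 members with the largest fold change each way in each contrast, called in both groups and alike in every library, for the 3 members of smallest genotype p in the RGC gate and 1 in each other class gate, and for 7 genes of known role. Other genes named were chosen after their values were seen, and 4 members and 1 RGC type gate are not reported here.

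Gene positions came from GENCODE vM39 (GRCm39). Of the 40 members, 14 overlap another gene model on the same strand, between which counts could have been split. The genes are Kcnb2, Kcnc1, Kcnc2, Kcnd2, Kcnd3, Kcnf1, Kcng2, Kcng4, Kcnh2, Kcnh7, Kcnh8, Kcnq1, Kcnq5 and Kcnv1.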

Additional observations from a re-analysis of the deposited data

Results flagged for a closer look

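Of 144 groups of 4 libraries examined for a library far from the other 3, 6 passed Dixon's 95% critical value (4.17%), where chance alone passes about 5%. In amacrine-gated nuclei, Kcna5 was highest in cKO 11 at 27.8 CPM, with the other cKO libraries at 11.7 to 13.8 CPM. Starburst nuclei of control 2 held 28.6 CPM of Kcnq5 and those of the other controls 0 CPM. Tbr1-gated nuclei of cKO 10 held 302.6 CPM of Kcnq5 against 174 to 192 CPM. Kcng2 was at 9.501 CPM in the Zic1 gate of cKO 11 and at 0 CPM in the other cKO libraries. Rod-gated nuclei of control 1 held 96.3 CPM of Kcnq3 against 15.9 to 25.3 CPM. In RGC-gated nuclei, Kcna1 was highest in control 1 (63.4 CPM against 48.8 to 50.7 CPM).

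Kcnd2 was called as differing between genotypes in the Müller glia contrast by edgeR but not by DESeq2. The log2 fold change against RGC-gated nuclei was -7.61 in the control and -5.53 in the cKO libraries. The interaction was 2.10 on the log2 scale (edgeR's quasi-likelihood test, adjusted p = 0.000108). DESeq2 gave 2.02 and an adjusted p of 0.999999. The call rested on few UMIs in the Müller glia gate, and not every cKO library lay above the control range there. Empty droplets of the control libraries held 280.4 ± 56.6 CPM of Kcnd2, above every Müller glia value.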

How the results depend on the processing

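Of 849 fold changes of named genes recomputed under other settings in the control contrasts, 822 kept their direction and side of the threshold, 26 were no longer called and 1 turned sign (the partner gene Kcnip3 in the Tbr1 gate, at -1.02 when nuclei were thinned before gating, for which the cause was not tested). Class calls lost were 1 with DESeq2, 4 by rank alone, 5 thinned after and 1 thinned before gating. For RGC types they were 3 with DESeq2, 2 with the stricter gate, 3 thinned after and 5 thinned before gating. Within classes they were 1 with DESeq2 and 1 thinned before gating. The genes of these lost calls are not listed here. In RGC types thinned before gating, only 5 fold changes kept their direction and side of the threshold, 5 were no longer called and 1 turned sign. The total over all settings therefore does not stand for RGC types at that depth. Leaving out 1 control library gave 359 values, of which 347 kept both and 12 were no longer called. In the genotype contrast all 69 values under other settings and all 72 without 1 library stayed uncalled with the same sign. Of 143 counts of called Kv genes in the control contrasts, 129 stayed within 1.5 times the count reported, as did all 59 without 1 control library, and for the rest the cause was not tested. Thinning to 2000 UMIs before gating, without the nuclei under 2000 UMIs, gave 13 calls in the amacrine, 14 in the rod, 5 in the ON cone bipolar, 6 in the Foxp2 and 6 in the Zic1 contrast. It gave 0 for cone against rod (edgeR, 4 genes tested, 1 with an unadjusted p under 0.05) and 0 for Tbr1 (22 tested, 6 under 0.05). Thinning after gating, which also left out nuclei under 2000 UMIs and was chosen after seeing the data, gave 14 calls for rod, 1 for cone against rod and 10 for Spp1. Nuclei called by rank alone gave 13 for rod and 2 for cone against rod, the stricter gate gave 9 for cone against rod, and DESeq2 gave 8 for ipRGC. In the genotype contrast, fits without the filter on low counts called 1 Kv gene in the rod (Kcnq5), 1 in the cone (Kcnd2) and 1 in the Müller glia gate (Kcnd2), and leaving out 1 library gave 0 to 1 in the Müller glia gate, 1 without cKO 13. That call was Kcnd2, which then passed the filter through the cKO libraries alone. The Kcnd2 interaction in the Müller glia contrast, retried after seeing the data, stayed called in 13 of 14 refits and fell to uncalled with DESeq2 at 2.02. Thinning before gating could not be fitted for the ipRGC, Spp1, Cartpt, Chrm2 and starburst contrasts, nor the stricter gate for Tbr1 and starburst, and the horizontal contrast had 1 control library with over 10 nuclei. No paired analysis was possible because the replicate numbers of the control and cKO libraries do not overlap. Where a gate held 0 to 3 UMIs of a gene, the depth allowed a bound or a counting interval in place of a fold change.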

Other observations

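Horizontal cells, the inhibitory neurons of the outer retina, passed their gate with over 10 nuclei in 1 control library, with 39 nuclei in control 1. These nuclei held 1321 CPM of Kcnh7 and 572 CPM of Kcnq5, values with no replicate among the controls. In cKO libraries 10 and 11 the gate held 33 and 16 nuclei, with 1005 and 1257 CPM of Kcnh7 and 574 and 385 CPM of Kcnq5. Against RGC-gated nuclei of these 2 libraries, edgeR's quasi-likelihood test called 15 of 31 tested members (1 higher and 14 lower) and 9.97% of all genes tested (3.11% higher and 6.86% lower). RGC markers in rod-gated nuclei corresponded to 5.30% (control 4) to 17.1% (cKO 11) of the level in empty droplets. This share cannot measure free RNA, because nuclei that also passed the RGC gate were left out of the rod gate. Summed check markers of RGCs, which no gate used, were 230 to 420 CPM in rod-gated nuclei of the control libraries. In RGC-gated nuclei they were 480 to 577 CPM. The cKO libraries gave 195 to 356 and 509 to 623 CPM in the same order, and the cause was not tested.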
